A study of Mus musculus with 6 samples.

Results

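The D-type cyclins, the kinases they activate and the proteins that inhibit those kinases form the switch that decides whether a cell in G1 goes on to copy its DNA. Cyclins D1, D2 and D3 (genes Ccnd1, Ccnd2 and Ccnd3) bind the kinases CDK4 and CDK6 (Cdk4, Cdk6), and the complexes phosphorylate the retinoblastoma protein, which then releases E2F transcription factors. Inhibitors of the INK4 family (p15 from Cdkn2b, p18 from Cdkn2c) bind CDK4 and CDK6, while those of the CIP/KIP family (p21 from Cdkn1a, p27 from Cdkn1b, p57 from Cdkn1c) bind cyclin-CDK complexes, above all those of CDK2. In the lens, epithelial cells leave the cell cycle as they become fiber cells, and p27 and p57 are known for their part in that exit. These 10 genes were chosen by name, and each matched a single Ensembl identifier among the 56940 genes counted.

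RNA was sequenced from mouse lens capsules with their attached lens epithelial cells in a model of cataract surgery, in which the fiber mass of the lens is removed while capsule and epithelium stay in the eye. The 5 day group (3 libraries) came from eyes operated on 5 days before collection, and the 0 h group (3 libraries) from eyes operated on at collection. Every library was a pool of 5 capsules from wildtype C57BL/6 mice, and mice that gave a 0 h capsule had already been operated on in the other eye. A 0 h library is therefore no sample of unoperated animals. The labels used here give neither the age of the mice nor whether a 5 day pool and a 0 h pool share animals. Per library, 6207387, 7509954 and 8682659 reads were counted in genes at 5 days, and 7709815, 9774343 and 8707928 at 0 h. CPM below are read counts scaled to a common library size with TMM factors, and means carry the SD over 3 libraries. A change is the log2 fold change, 5 days over 0 h, beside its standard error (SE). It comes from edgeR's quasi-likelihood test, whose p-values were Benjamini-Hochberg adjusted over 14676 tested genes, and a gene is said to have risen or fallen where the adjusted p was under 0.05.

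All 8 lens epithelium markers looked for, among them Foxe3, Pax6 and Cdh1, were detected at both times. Of these 8, 1 rose and 6 fell, and their summed level, most of it from the crystallin genes Cryaa and Cryab, was 7501 to 21739 CPM at 5 days against 77087 to 94061 CPM at 0 h. Replicates are numbered here by sample title, and the library names given for replicates 2 and 3 at 5 days carry other numbers. Replicate 3 at 5 days stood apart from the other libraries on the second principal component, which held 4.87% of the variance. Markers of other cells also differed between the times, and their part in the results below was not tested. All 10 markers of macrophages and monocytes rose, with a summed level of 482 to 678 CPM at 5 days against 14.9 to 32.4 CPM at 0 h, where Ccr2 had no counts. Lens fiber markers fell for 9 of 9 tested, summing to 2739 to 11625 CPM at 5 days against 62701 to 71137 CPM at 0 h, with no Crygb counts at 5 days. Retinal photoreceptor markers fell for 6 of 6, summing to 31.9 to 91.3 CPM at 5 days against 495 to 753 CPM at 0 h. Pericyte and smooth muscle markers rose for 4 of 4 and endothelial markers for 3 of 4 tested, while of 3 tested fibroblast markers 2 rose and 1 fell. The 6 neutrophil markers had no counts at 0 h and summed to 2.75 to 8.40 CPM at 5 days, where Ly6g, Mpo and Elane were still at 0, and lymphocyte markers summed to at most 0.873 CPM in any library. Of pigment cell and corneal epithelium markers, 1 of 4 and 1 of 1 tested fell. In such bulk samples, fewer cells of a type and less RNA per cell cannot be told apart.

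The 10 genes did not move as a unit. Of the 10, 4 rose (Cdk4, Cdk6, Cdkn1a, Cdkn2b), 5 fell (Ccnd1, Ccnd3, Cdkn1b, Cdkn1c, Cdkn2c) and Ccnd2 did not pass the test. Among all tested genes 47.6% were called, 25.1% higher and 22.5% lower. For all 10 the libraries of 5 days lay wholly on one side of those of 0 h, 4 above and 6 below, where 58.1% of all tested genes did so. Without replicate 2 at 0 h, 4 were called higher and 3 lower. Leaving out any other single library gave 3 higher and 5 lower, or 4 lower without replicate 1 at 0 h. The large changes were in the inhibitors, and they went in opposite directions: Cdkn1a and Cdkn2b rose 14.2-fold and 11.3-fold, and Cdkn1c was 9.35-fold lower. The D-type cyclins and their kinases changed less than 2-fold.

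**Figure D1:**
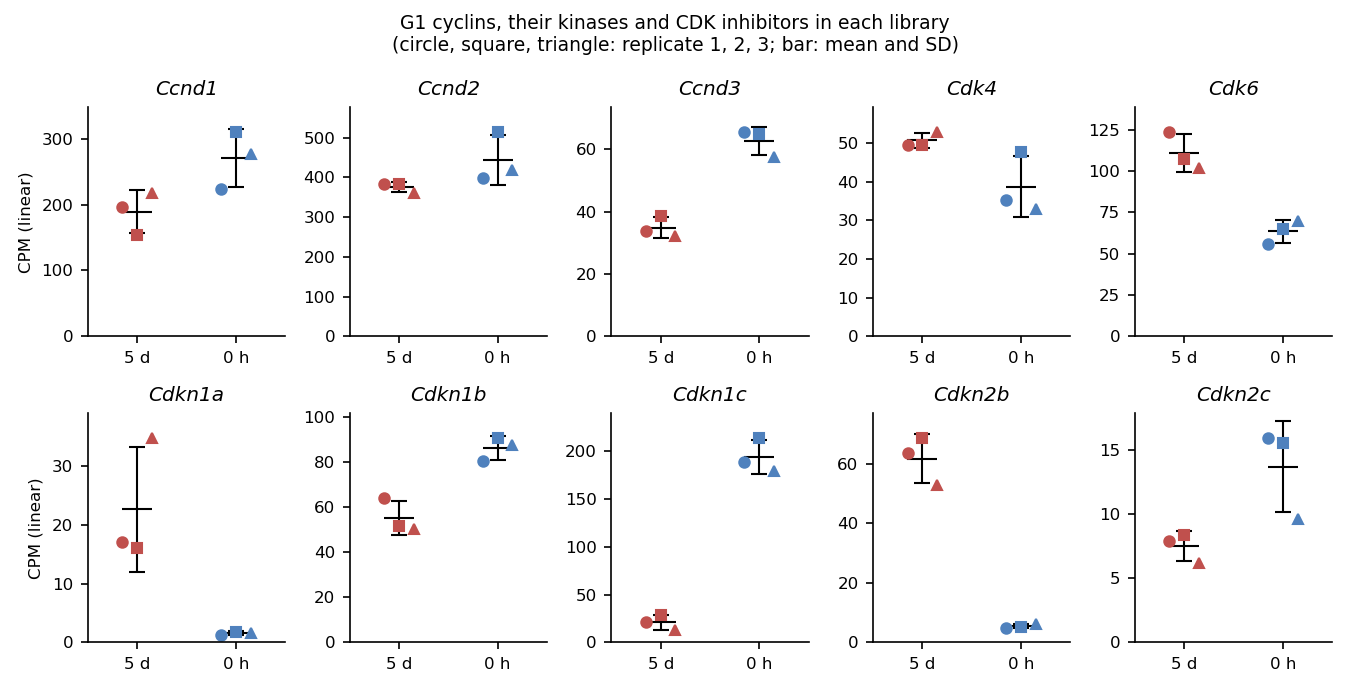
Expression of the 10 genes in each library, in CPM on a linear axis that starts at 0 and differs between panels, with 5 days left of 0 h; symbols mark replicates, and the bar is the mean with its SD (n = 3). Cdkn1a and Cdkn2b are near the bottom of their panels at 0 h, and Cdkn1c is near the bottom of its panel at 5 days.

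Starting with the inhibitors that rose, Cdkn1a (ENSMUSG00000023067) encodes p21, which is induced by p53 and by growth-inhibitory signals. Cdkn1a had 17.1, 16.0 and 34.9 CPM at 5 days, against 1.21, 1.86 and 1.66 CPM at 0 h. Replicate 3 at 5 days held about the level of the other 5 day replicates together, and even the lowest 5 day library was far above every 0 h library. The Cdkn1a log2 fold change was 3.83 (SE 0.36, edgeR adjusted p = 3.82e-06), and it was 3.36 without replicate 3 at 5 days. Cdkn1a had 108, 128 and 320 reads at 5 days, against only 9, 17 and 14 at 0 h, so the 0 h level carries most of the counting error. Cdkn2b (ENSMUSG00000073802) encodes p15, an INK4 inhibitor known as a target of TGF-beta in epithelial cells. Cdkn2b had 63.7, 68.8 and 52.8 CPM at 5 days, against 4.96, 5.14 and 6.18 CPM at 0 h. Its values were tight at both times, with a coefficient of variation of 13.2% at 5 days and 12.1% at 0 h, and the log2 fold change was 3.50 (SE 0.16, edgeR adjusted p = 1.22e-08).

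The promoter sequences of these genes are shown because both rose while they belong to different inhibitor families. That of Cdk4 is shown because it holds a motif of Myc, a gene described further on. Mean Myc rose from 5.10 CPM at 0 h to 18.7 CPM at 5 days, while its relative Mycn fell from 66.2 to 9.91 CPM. A link of either to Cdk4 was not tested. From RefSeq on build GRCm38.p6, 7 of the 10 genes matched a start, and Ccnd1, Ccnd2 and Cdkn1c were not among them. Each line gives the 250 bases before a start, 5′ to 3′ on the gene's strand. Capitals mark CATG, any 6 bases and CATG in Cdkn1a, a pair of cores spaced as in the paired half-sites that p53 binds, TGACGTCA, the cAMP response element, in Cdkn2b, and CACGTG, the E-box bound by Myc and other factors, in Cdk4. Cdkn1a has another annotated start, whose window held none of these 3 motifs.
Cdkn1a: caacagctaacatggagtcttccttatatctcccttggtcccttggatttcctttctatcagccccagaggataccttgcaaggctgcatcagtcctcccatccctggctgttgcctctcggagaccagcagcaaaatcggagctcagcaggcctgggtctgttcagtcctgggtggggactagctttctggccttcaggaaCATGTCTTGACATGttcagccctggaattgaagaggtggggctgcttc
Cdkn2b: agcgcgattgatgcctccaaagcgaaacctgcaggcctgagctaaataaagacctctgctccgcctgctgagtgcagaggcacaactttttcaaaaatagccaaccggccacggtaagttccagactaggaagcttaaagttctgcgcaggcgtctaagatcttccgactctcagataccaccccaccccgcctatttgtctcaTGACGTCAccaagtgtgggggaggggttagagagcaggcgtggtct
Cdk4: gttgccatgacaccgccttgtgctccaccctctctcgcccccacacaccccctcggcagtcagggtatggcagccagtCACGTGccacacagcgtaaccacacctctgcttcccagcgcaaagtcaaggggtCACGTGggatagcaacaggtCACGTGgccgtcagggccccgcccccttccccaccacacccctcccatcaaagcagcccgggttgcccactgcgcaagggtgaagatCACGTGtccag
The intervals are chr17:29090729-29090978 on the plus strand for Cdkn1a, chr4:89311033-89311282 on the minus strand for Cdkn2b and chr10:127063285-127063534 on the plus strand for Cdk4. Of 32851 such windows over all genes, 0.49% held the spaced CATG pair, 1.55% held TGACGTCA and 6.02% held CACGTG, which occurred 4 times before Cdk4 (3 or more times in 0.0609% of windows). These 3 motifs read the same on either strand, apart from N positions, and no match overlapped another. The GC box GGGCGG, also searched on both strands, was in 32.7% of windows. It had no match in these windows of Cdkn2b or in that of the first Cdkn1a start, 1 match before Cdk4 and 2 before the other Cdkn1a start. Cdk6 had 1 CACGTG, and the spaced CATG pair and TGACGTCA had no match in the other windows of the 7 genes. The motifs were chosen with the sequences in view, and a match is a string of letters that was not tested as a binding site.

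Cdkn1c (ENSMUSG00000037664), which encodes p57, an imprinted CIP/KIP inhibitor of the differentiating lens, went the other way. It had 21.1, 28.3 and 13.3 CPM at 5 days, against 189, 214 and 180 CPM at 0 h. Every 5 day library was thus far below every 0 h library, and replicate 3 was again the most extreme of its group. The Cdkn1c log2 fold change was -3.22 (SE 0.21, edgeR adjusted p = 1.44e-07), and it was -2.98 without replicate 3 at 5 days and -3.52 without replicate 2. The same replicate 3, highest for Cdkn1a and lowest for Cdkn1c, had the lowest summed lens epithelium (7501 CPM) and lens fiber (2739 CPM) markers of the 5 day libraries, whose part in these values was not tested. An annotated antisense gene, Gm44732, shares 625 exon bases with Cdkn1c and also fell, with 0, 0 and 1 counts at 5 days against 33, 25 and 15 at 0 h. The strand setting of the counting is not given in the sources used here, and those counts are few beside the 1408 to 1959 of Cdkn1c at 0 h.

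The other inhibitors fell less. Cdkn1b (ENSMUSG00000003031), whose product p27 holds resting cells in G1, had 63.9, 51.5 and 50.2 CPM at 5 days, against 80.4, 90.7 and 87.4 CPM at 0 h. The groups were apart, and the log2 fold change was -0.65 (SE 0.12, edgeR adjusted p = 5.70e-04). Cdkn2c (ENSMUSG00000028551), which encodes the INK4 inhibitor p18, had 7.93, 8.38 and 6.22 CPM at 5 days, against 16.0, 15.5 and 9.62 CPM at 0 h. Replicate 3 was the lowest at each time, and at 0 h it came close to the 5 day values. The Cdkn2c log2 fold change was -0.87 (SE 0.25, edgeR adjusted p = 0.0124), and the call was lost without replicate 1 at 0 h (adjusted p = 0.0525) or replicate 2 at 0 h (adjusted p = 0.0554) in the same edgeR test, where over all alternatives the adjusted p was 0.00218 to 0.0554.

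**Figure D2:**
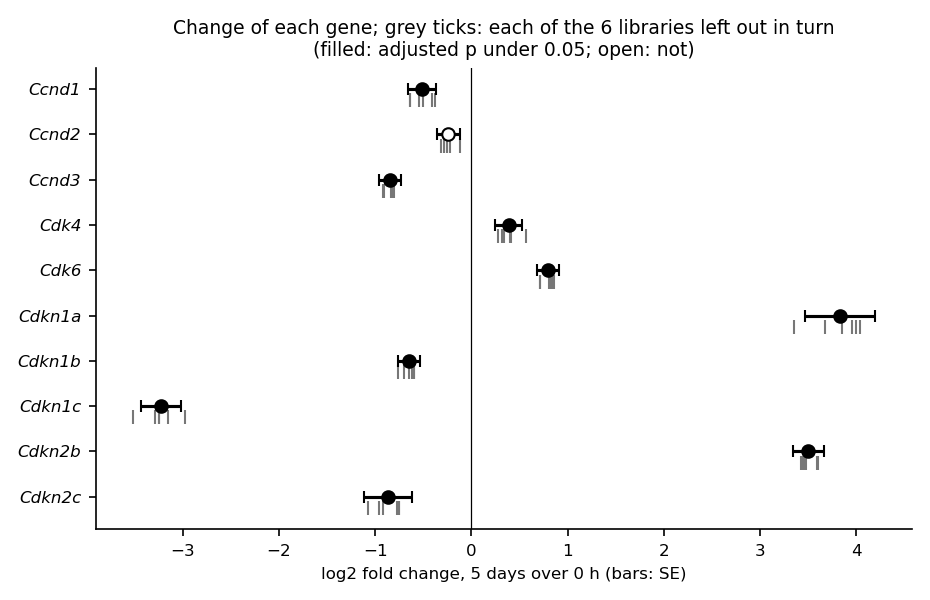
Log2 fold change of each gene, 5 days over 0 h, from edgeR's quasi-likelihood fit; bars are the SE, filled points passed an adjusted p under 0.05, and grey ticks give the value with each of the 6 libraries left out. Cdkn1a (3.83) and Cdkn2b (3.50) stand at the right and Cdkn1c (-3.22) at the left, and Ccnd2 is the open point at -0.24.

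The make-up of the inhibitor transcripts differed between the times. Divided by exon length, so that genes can be set side by side, Cdkn2b held 58.8, 60.1 and 56.1% of the summed level of the 5 inhibitor genes at 5 days, against 2.97, 2.74 and 3.84% at 0 h. In plain counts, not divided by length, the share of Cdkn2b was 36.7, 39.8 and 33.5% at 5 days, against 1.70, 1.57 and 2.17% at 0 h. Cdkn1b then held 36.8, 29.8 and 31.9% at 5 days, against 27.6, 27.7 and 30.7% at 0 h, and stood slightly above Cdkn2b in replicate 1 at 5 days. Divided by exon length again, as are the shares that follow, Cdkn1c held 13.3, 16.8 and 9.65% at 5 days, against 77.1, 77.8 and 76.1% at 0 h. The share of Cdkn1a was 8.72 ± 5.03% at 5 days and 0.358 ± 0.0658% at 0 h (SD, n = 3 each). The shares of Cdkn1b overlapped between the times, at 16.0 ± 2.13% at 5 days and 15.4 ± 1.07% at 0 h (SD, n = 3 each), although its own level fell. Cdkn2c made up 3.67 ± 0.212% at 5 days and 4.11 ± 0.939% at 0 h (SD, n = 3 each), which also overlapped. The summed level of the 5 genes was 77.99, 82.3 and 67.7 CPM per kb at 5 days, against 120, 135 and 116 CPM per kb at 0 h, lower in every 5 day library. These shares are descriptions over chosen genes and carry no test.

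**Figure D3:**
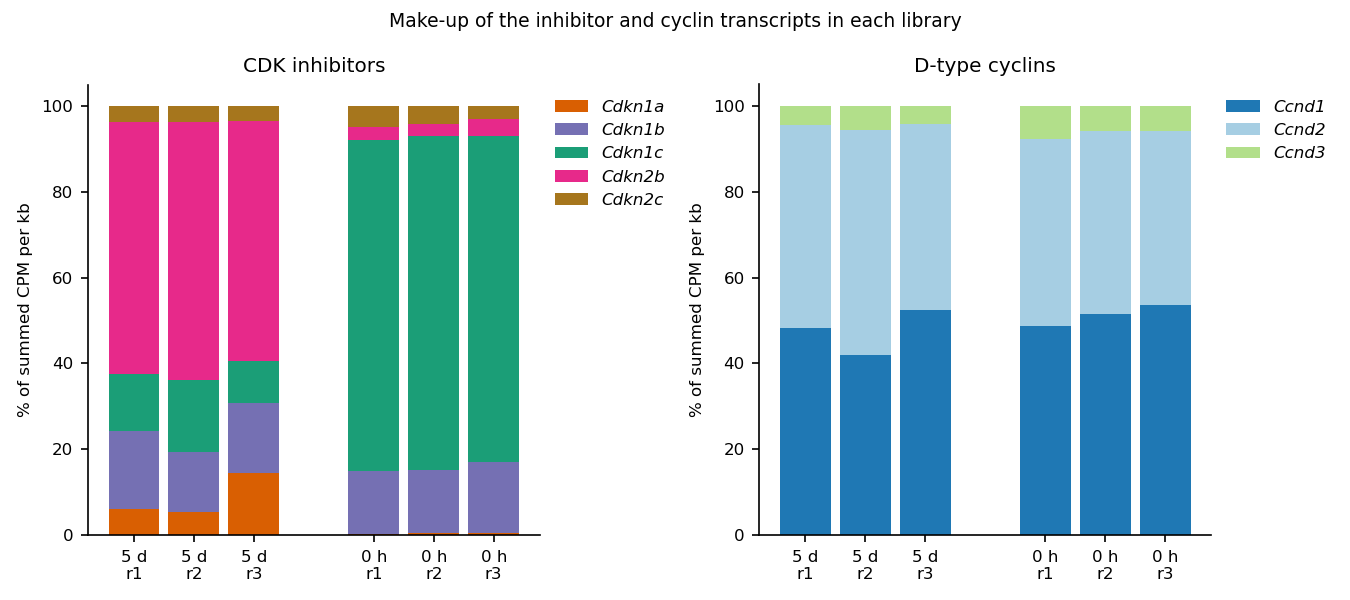
Share of each gene in the summed CPM per kb of exons of the 5 CDK inhibitor genes (left) and the 3 D-type cyclin genes (right), 1 bar per library, 5 days left of 0 h. Cdkn2b is the largest inhibitor segment in the 3 bars of 5 days (56.1 to 60.1%) and Cdkn1c in the 3 bars of 0 h (76.1 to 77.8%), while Ccnd1 and Ccnd2 hold most of every cyclin bar; in plain counts the Cdkn2b share at 5 days is 33.5 to 39.8%.

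Among the D-type cyclins, Ccnd3 (ENSMUSG00000034165) changed the most. Ccnd3 had 33.8, 38.5 and 32.2 CPM at 5 days, against 65.6, 64.7 and 57.4 CPM at 0 h. The groups were well apart, with a log2 fold change of -0.85 (SE 0.12, edgeR adjusted p = 7.27e-05). Ccnd1 (ENSMUSG00000070348), the D-type cyclin most tied to growth factor signalling, had 196, 154 and 218 CPM at 5 days, against 223, 311 and 277 CPM at 0 h. The highest 5 day library and the lowest 0 h library nearly met, and the log2 fold change was -0.51 (SE 0.15, edgeR adjusted p = 0.0122). Without replicate 2 at 0 h, the highest of its group, the Ccnd1 change was -0.41 and the call was lost (edgeR adjusted p = 0.068, with a range of 1.63e-04 to 0.068 over all alternatives). Ccnd2 (ENSMUSG00000000184) had 382, 384 and 362 CPM at 5 days, against 398, 515 and 418 CPM at 0 h. It was lower in each 5 day library than in any 0 h library, but its log2 fold change of -0.24 (SE 0.12, 95% interval -0.49 to 0.01) did not pass the test (edgeR adjusted p = 0.108), which does not show that it was unchanged.

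Per kilobase of exons, Ccnd1 and Ccnd2 together made up most of the cyclin D transcripts at each time. Ccnd1 held 47.6 ± 5.26% at 5 days and 51.3 ± 2.41% at 0 h, and Ccnd2 held 47.7 ± 4.49% at 5 days and 42.3 ± 1.59% at 0 h (SD, n = 3 each). The shares of each overlapped between the times, except that those of Ccnd2 were higher in every 5 day library when the longest transcript or plain counts were used. The share of Ccnd3 was 4.47, 5.63 and 4.15% at 5 days, against 7.70, 5.76 and 5.95% at 0 h, which did not overlap. The summed level of the 3 cyclins was 84.2 ± 5.50 CPM per kb at 5 days and 112 ± 15.6 CPM per kb at 0 h (SD, n = 3 each), lower in every 5 day library.

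The kinase genes rose while the cyclin genes fell or did not pass. Cdk6 (ENSMUSG00000040274) had 124, 107 and 102 CPM at 5 days, against 55.9, 65.0 and 69.6 CPM at 0 h. The groups were apart, with a log2 fold change of 0.80 (SE 0.12, edgeR adjusted p = 1.10e-04). Cdk4 (ENSMUSG00000006728) had 49.5, 49.5 and 52.9 CPM at 5 days, against 35.3, 47.7 and 33.0 CPM at 0 h. Replicate 2 at 0 h came close to the 5 day libraries, which were nearly equal among themselves. The Cdk4 log2 fold change was 0.39 (SE 0.14, edgeR adjusted p = 0.0392). The call did not hold without any 1 of the 3 libraries at 5 days or of replicates 1 and 3 at 0 h (adjusted p 0.053 to 0.169, change 0.28 to 0.41 in the same edgeR test), and over all alternatives the adjusted p was 0.00472 to 0.169. Cdk4 shares 641 exon bases with Tspan31 on the opposite strand, a gene of similar count that also rose, by 0.79 (SE 0.12, edgeR adjusted p = 2.06e-04). How reads in the shared stretch were assigned is not given in the sources used here. The summed level of the 2 kinases was 23.5 ± 0.587 CPM per kb at 5 days and 16.4 ± 2.50 CPM per kb at 0 h (SD, n = 3 each), higher in every 5 day library, while the share of Cdk6 in it overlapped between the times. Ccnd1 and Ccnd3 likewise share exon bases on the opposite strand with LTO1 and Bysl, which were not called.

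In levels per kilobase of exons, the order of the genes changed between the times. At 5 days Cdkn2b (44.4 ± 5.89 CPM per kb), Ccnd1 (40.2 ± 6.92 CPM per kb) and Ccnd2 (40.0 ± 1.34 CPM per kb) stood highest (SD, n = 3 each), and their library values overlapped. Below them, in levels per kilobase at 5 days, Cdk4 (15.6 CPM per kb) lay apart from its neighbours above and below, and then came Cdkn1b (12.1 CPM per kb), Cdkn1c (10.2), Cdk6 (7.92) and Cdkn1a (6.38), each overlapping the next. The lowest levels per kilobase at 5 days were those of Ccnd3 (3.97 CPM per kb) and Cdkn2c (2.80), each apart from its neighbour. At 0 h Cdkn1c stood alone at the top (95.2 ± 8.76 CPM per kb), above Ccnd1 (57.4 ± 9.39 CPM per kb) and Ccnd2 (47.2 ± 6.66 CPM per kb), which overlapped (SD, n = 3 each). Next in level per kilobase at 0 h were Cdkn1b (18.9 CPM per kb), Cdk4 (11.9) and Ccnd3 (7.13), each apart from the next, then Cdkn2c (5.10), Cdk6 (4.54) and Cdkn2b (3.90), each overlapping the next, and last Cdkn1a (0.444). Exon lengths came from an annotation older than the one used for counting. The length of the longest transcript was also used, a setting chosen after seeing the data. In mean level Ccnd2 and Ccnd1 then stood above Cdkn2b at 5 days (59.4 and 50.6 against 44.4 CPM per kb). The library values of Ccnd1 overlapped those of Ccnd2 and those of Cdkn2b, and Cdkn1c stayed highest at 0 h.

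The rest of the G1 pathway was described with 8 gene lists, each as a count of genes past the same edgeR test and a median log2 fold change, which was -0.01 over all tested genes. Of 10 tested INK4 and antiproliferative genes outside the 10 members, 5 were higher and 3 lower (median 0.37). That was 80% called, against 47.6% of all tested genes. Cdkn2a, the neighbour of Cdkn2b that encodes p16 and p19ARF from 1 locus, had 16.2, 13.8 and 19.2 CPM at 5 days, against 0.537, 0.656 and 0.237 CPM at 0 h, only 4, 6 and 2 reads. Every 5 day library was far above every 0 h library, and the Cdkn2a log2 fold change was 5.05 (SE 0.35, edgeR adjusted p = 3.11e-07), but gene counts cannot tell its 2 products apart. The INK4 gene Cdkn2d (p19), named after its values were seen, was not called, at 0.13 (SE 0.38), so Cdkn2a and Cdkn2b rose while Cdkn2c fell within that family (differences between the genes were not tested). Btg1, an antiproliferative gene of resting cells, rose by 0.38 and was the most abundant called gene of the list, and the related Tob1 fell furthest, by 1.21. The count of 5 higher was 3 without replicate 1 at either time.

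Genes of the p53 response, set beside Cdkn1a, rose for 10 of 20 tested and fell for 4 (median 0.54). That was 70% called, against 47.6% of all tested genes, and leaving out replicate 1 at 5 days left 2 lower. Pmaip1, which encodes the cell death protein NOXA, had 27.1, 24.3 and 42.3 CPM at 5 days, against 0.402, 0 and 0.356 CPM at 0 h. Its 0 h libraries held 3, 0 and 3 reads, and the Pmaip1 log2 fold change was 6.94 (SE 0.45, edgeR adjusted p = 1.60e-07). Trp53 itself, the gene of p53, rose by 0.71 (SE 0.13, edgeR adjusted p = 7.71e-04), and Mdm2, its ubiquitin ligase and target, by 0.54 (SE 0.10), with both named after their values were seen. The p53 targets that fell included Sesn1, a stress-response gene, by 1.73, and Ccng1, the most abundant called gene of the list, by 0.47. Cdkn1a thus rose beside some targets of p53 and not beside others.

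Few targets of the pathway further down were called. Of 22 replication and mitosis genes tested, 1 was called higher and 0 lower (4.55%), against 47.6% of all tested genes. At an unadjusted edgeR p under 0.05 the counts were also 1 and 0. Several of the genes not called had few reads, and a missing call does not show that a gene was unchanged. The called gene was Tyms, the thymidylate synthase, at 17.9, 15.01 and 14.4 CPM at 5 days against 3.76, 6.56 and 5.70 CPM at 0 h, a log2 fold change of 1.55 (SE 0.24, edgeR adjusted p = 2.20e-04). Mki67, the standard proliferation marker, was not called, with 50.9, 66.8 and 71.7 CPM at 5 days against 72.2, 94.5 and 65.0 CPM at 0 h, which overlapped (Mki67 was named after its values were seen). DESeq2 and limma-voom each called 1 gene of the list higher and 0 lower, while edgeR called 1 lower without replicate 1 at 5 days and 2 without replicate 3 at 5 days. Cdc6, a replication licensing factor also named after its values were seen, had only 4, 6 and 23 reads at 5 days against 31, 25 and 14 at 0 h, and its log2 fold change of -1.07 (SE 0.58) did not pass the test (edgeR adjusted p = 0.152).

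Between the cyclins and those targets, a smaller share of genes was called than the 47.6% of all tested genes. Of 13 pocket protein, E2F and DP genes, 1 rose and 2 fell (23.1% called, median 0.26). E2f4, a largely repressive E2F, rose by 0.45 (SE 0.12), Rbl2, the pocket protein p130 of resting cells, fell by 0.31 (SE 0.12), and the E2F partner Tfdp2 fell by 0.39 (SE 0.12). The 2 falls were not called by DESeq2, which called 1 gene higher and 0 lower. They were also not called when libraries were scaled by their total counts alone, which gave 4 higher and 0 lower and raised log2 fold changes by a median of 0.13 over all genes. Without replicate 3 at 0 h 0 genes of the list were called, 1 was called lower without replicates 1 or 3 at 5 days or replicate 2 at 0 h, and 2 were called higher without replicate 2 at 5 days. Rb1, the retinoblastoma gene, was higher in every 5 day library than in any 0 h library but did not pass, at 0.38 (SE 0.16, edgeR adjusted p = 0.0706; named after its values were seen). Of 8 genes of cyclin E, CDK2 and CDK activation (median -0.37), 2 passed and both were lower, Ccnh by 0.62 and Mnat1 by 0.45. Both encode partners of CDK7 in the CDK-activating kinase. The count lower was 1 without replicates 1 or 2 at 5 days or replicates 1 or 3 at 0 h, each left out alone. The cyclin E genes Ccne1 and Ccne2, named after their values were seen, did not pass and had few reads (3 to 31 a library). Ccne1 was higher in every 5 day library than in any 0 h library, at 1.06 (SE 0.49). Ccne2 was lower in every 5 day library than in any 0 h library, at -1.21 (SE 0.53). The MuvB core represses cell cycle genes at rest as part of DREAM and activates them in cycling cells with Mybl2 and Foxm1. Of 7 tested genes of this list, those 2 included (median -0.19), 2 passed and both were lower, Lin52 by 1.10 and the histone-binding Rbbp4 by 0.47.

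Genes for the turnover of cyclins and inhibitors were mostly not called, with 2 higher and 2 lower of 14 tested (median 0.08). The 28.6% called stood against 47.6% of all tested genes. The count higher was 1 without replicate 1 at 5 days or at 0 h, and the count lower was 1 without replicate 3 at 0 h. Fbxw7, the F-box protein that marks cyclin E and Myc for degradation, had 75.0, 72.8 and 79.4 CPM at 5 days, against 21.6, 28.9 and 23.4 CPM at 0 h. That was the clearest change of the list, at 1.62 (SE 0.13, edgeR adjusted p = 7.12e-07). Gsk3b, a kinase that marks cyclin D1 for export and degradation, rose by 0.30 (SE 0.10), and Skp1a, the adaptor of SCF ubiquitin ligases, fell by 0.58 (SE 0.10). Skp2, the F-box protein for p27, was not called, at -0.11 (SE 0.28), and was named after its values were seen.

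**Figure D4:**
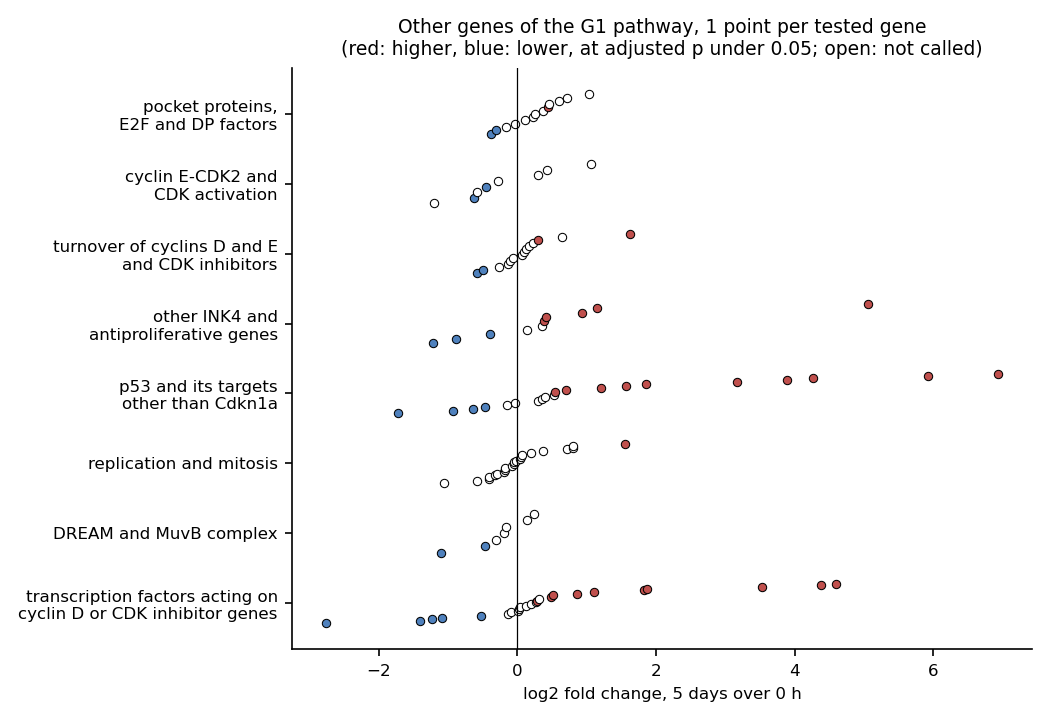
Log2 fold change, 5 days over 0 h, of each tested gene in the 8 pathway lists, with genes spread vertically within a list so that they can be told apart. Red points rose and blue points fell at an adjusted p under 0.05, and open points did not pass; 21 of the 22 replication and mitosis genes are open, and the p53 list reaches 6.94 at Pmaip1.

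Transcription factors known to act on these genes went in different directions, with 10 of 24 higher and 5 lower (median 0.24). That was 62.5% called, against 47.6% of all tested genes. Prox1, which is required for Cdkn1c and Cdkn1b expression in mouse lens fiber cells, had 434, 491 and 255.6 CPM at 5 days, against 910, 957 and 890 CPM at 0 h. All 5 day libraries were below all 0 h libraries, with replicate 3 the lowest, and the log2 fold change was -1.23 (SE 0.19, edgeR adjusted p = 2.22e-04). Gata3, also required for normal Cdkn1b and Cdkn1c expression in the mouse lens, fell by 1.40 (SE 0.20, edgeR adjusted p = 1.17e-04) and was named after its values were seen. Mycn fell the furthest, to 11.7, 12.9 and 5.13 CPM at 5 days against 64.1, 71.9 and 62.5 CPM at 0 h, a log2 fold change of -2.76 (SE 0.24, edgeR adjusted p = 2.08e-06). Its relative Myc moved the other way, with 14.4, 18.9 and 22.8 CPM at 5 days against 3.76, 6.45 and 5.11 CPM at 0 h, a log2 fold change of 1.87 (SE 0.25, edgeR adjusted p = 6.96e-05; named after its values were seen). Fosl1, an AP-1 subunit, rose the most in the list, by 4.59 (SE 0.66), with 32, 49 and 118 reads at 5 days against 5, 3 and 0 at 0 h. At 5 days the highest Fosl1 level was in replicate 3 (12.9 CPM). Replicate 3 was also the lowest 5 day library for Prox1, Gata3 and Mycn and the highest for Myc. Links between these genes and the members were not tested.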

How the data were processed

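Whole-number read counts per gene were deposited, 1 table per library. Per the submitters' processing notes, HISAT2, HTSeq, edgeR and GRCm39 were used; the notes used here name no tool versions, annotation release or strand setting. The rows of each table that name no gene held 32.3 to 42.6% of reads and were left out. Ensembl identifiers were named from a GRCm38 annotation (51947 of 56940 matched), which also gave exon lengths. The main test was edgeR 4.0.16 in R 4.3.3: filterByExpr, TMM scaling, quasi-likelihood test, Benjamini-Hochberg adjustment over all tested genes. Genes were counted between 6207387 and 9774343 times per library. The scripts were tested on simulated data with far fewer changed genes than here, which does not test the scaling under such broad change. Replicates are separate pools of 5 capsules. With 3 libraries a group an exact permutation test of a single gene cannot go below p = 0.1, so none was used. Same-numbered libraries did not deviate together (correlations 0.042, -0.090 and 0.061), so no pairing was used. Numbers are those of the sample titles; the library names of 2 of the 3 libraries at 5 days carry other numbers, so this check and the replicate block hold for the titles' numbering alone.

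The 10 genes, the pathway and marker lists and the motifs were chosen with earlier results of these data known. From each list were named the most abundant called gene and the called genes with the largest rise and fall, plus up to 2 genes chosen after their values were seen. Alternatives were other scalings (size factors, total library size, TMM factors computed leaving out genes of crystallins, mitochondria and ribosomal RNA), no filter or a filter of 2 CPM in 3 libraries, DESeq2 1.42.0, limma-voom (limma 3.58.1), a replicate block, each library left out, and other gene lengths. Promoter sequences are RefSeq's.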

Additional observations from a re-analysis of the deposited data

How the results depend on the processing

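Calls and directions of Ccnd3, Cdk6, Cdkn1a, Cdkn1b, Cdkn1c and Cdkn2b held under all 14 alternatives of the test, and Ccnd2 was called under none (adjusted p 0.0727 to 0.444). Leaving out 1 library gave changes of -0.64 to -0.38 for Ccnd1, 0.28 to 0.56 for Cdk4 and -1.08 to -0.76 for Cdkn2c, with calls lost as given above, and 3 to 5 members lower; the 3 were without replicate 2 at 0 h, where the calls of Ccnd1 and Cdkn2c were lost. With each replicate left out in turn, list counts were 0 to 2 higher and 0 to 2 lower for pocket protein, E2F and DP genes, 1 to 3 lower for cyclin E and CDK activation, 1 to 2 higher and 1 to 3 lower for turnover, 3 to 5 higher for INK4 and antiproliferative genes, 2 to 4 lower for p53 genes and 0 to 2 lower for replication and mitosis. The replicate block left the members at 4 higher and 5 lower and changed none of their calls (3550 genes higher and 3188 lower in all).

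Total library size called 4436 genes higher and 2618 lower. It gave 4 higher and 0 lower pocket protein, E2F and DP genes, 1 higher and 1 lower cyclin E and CDK activation genes, and 1 lower turnover gene. The stricter filter gave 2 higher pocket protein genes. TMM without crystallin, mitochondrial and ribosomal RNA genes and no filter gave 1 lower pocket protein gene each, and DESeq2 gave 0. No filter and DESeq2 each gave 1 lower cyclin E gene. The causes were not tested.

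With plain counts, not divided by length, mean shares at 5 days and at 0 h were 31.5% and 34.7% for Ccnd1, 62.7% and 57.1% for Ccnd2, 5.82% and 8.15% for Ccnd3, 13.8% and 0.522% for Cdkn1a, 32.8% and 28.7% for Cdkn1b, and 36.7% and 1.82% for Cdkn2b. Plain counts also gave 64.5% for Cdkn1c at 0 h and 4.45% for Cdkn2c at 5 days. With the longest transcript, chosen after seeing the data, shares were 7.62% at 5 days and 10.3% at 0 h for Ccnd3, 54.4% for Cdkn2b at 5 days, and 45.5% for Ccnd1, 44.2% for Ccnd2 and 0.576% for Cdkn1a at 0 h. Levels in CPM per kb at 5 days and at 0 h were then 50.6 and 72.3 for Ccnd1, 59.4 and 70.1 for Ccnd2, 9.03 and 16.2 for Ccnd3, 24.7 and 18.8 for Cdk4, 9.61 and 5.51 for Cdk6, and 10.9 and 0.758 for Cdkn1a. Total library size gave levels of 41.8 for Ccnd2 and 16.3 for Cdk4 at 5 days. Low counts at 0 h limit the precision of changes such as those of Cdkn1a, Cdkn2a, Pmaip1 and Fosl1.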
